A study of Mus musculus with 6 samples.

Results

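The constitutive proteasome subunit genes were examined in mouse lung endothelial cells (ECs). They comprised 35 of the 18194 genes on the arrays and were picked by gene symbol from the subunits of the complex, not by a threshold on measured values, although earlier results of these data were known when the list was chosen. Of them, 14 encode the 20S core particle, 17 the 19S regulatory particle and 4 its assembly chaperones and the proteasome inhibitor PI31. The immunoproteasome subunits, which replace some of them, were not counted among the 35. All 35 symbols were matched to a probe set, and each gene was represented by its brightest probe set. All 35 lay above the background level of 7.48, which is the 95th percentile of 44 probe sets for olfactory receptors.

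The question was how the ECs of a metastatic lung depend on tenascin C (TNC), a matrix glycoprotein, made by the cancer cells. NSG mice, aged 6 to 8 weeks, received intravenous MDA-MB-231-LM2 cells, a lung-seeking derivative of a human breast cancer line. The cancer cells carried either control shRNA (shControl, n = 3 samples) or shRNA for TNC (shTNC, n = 3 samples), and lungs were collected on day 20. ECs were sorted from whole lungs as CD31-positive cells after exclusion of CD45, CD11b, EpCAM, CD140a/b and GFP, and their RNA was measured on Affymetrix arrays.
Both groups therefore bore cancer cells, and no lung without them entered the comparison. The study reports that TNC knockdown repressed lung colonization by these cells, so metastatic load may also differ between the groups. An effect of load and one of TNC itself cannot be told apart here. The knockdown was in the injected cells, and the mice themselves kept their own Tnc gene. NSG mice lack mature lymphocytes and natural killer cells but keep macrophages. The ECs came from the whole lung, so those near metastases and those far from them were measured together.

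The 26S proteasome degrades proteins that carry ubiquitin chains. Its barrel-shaped core holds the proteolytic sites inside stacked rings of alpha and beta subunits, and the alpha rings gate the entry. The regulatory particle caps the barrel, binds and removes ubiquitin, unfolds the substrate with a ring of ATPases and threads it into the core. In ECs the proteasome is known for the turnover of cyclins and of the inhibitor that holds NF-kB in the cytoplasm.

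All 12 pan-endothelial markers lay above background, and 0 of them had an unadjusted p under 0.05 in either direction. The log2 level of Pecam1, which encodes CD31, was 13.92 to 14.03 over the 6 arrays, and that of Cdh5, the cadherin of endothelial junctions, was 13.86 to 13.96. Of the proteins used to exclude cells, Ptprc, which encodes CD45, ranged from 7.65 to 8.73 and Epcam from 7.45 to 7.92, close to the background level. Pdgfra and Pdgfrb, which encode CD140a and CD140b, ranged from 8.74 to 9.65 and from 8.53 to 9.24. Other genes of those cell types were bright on every array. Sftpc, the surfactant gene of alveolar epithelium, ranged from 12.09 to 13.46, Lyz2, a lysozyme gene of macrophages, from 11.59 to 12.55, and Col3a1, a fibroblast collagen gene, from 12.01 to 12.47. Above background were 10 of 10 epithelial, 11 of 14 macrophage and monocyte, 10 of 10 fibroblast, 9 of 10 pericyte and 4 of 6 mesothelial markers. The part of such RNA in the levels of the members was not tested. Correlations between arrays over all probe sets were 0.9861 to 0.9939. The weight that limma estimated for an array was lowest for shControl 2, at 0.523, against 0.744 to 1.55 for the others.

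No proteasome subunit gene passed the test between shTNC and shControl ECs. With limma and Benjamini-Hochberg adjustment over all probe sets, 0 of the 35 members had an adjusted p under 0.05, and the smallest was 0.393. That threshold was passed by 0.0% of all 18194 genes, so the absence of calls does not set the members apart. At an unadjusted limma p under 0.05, 0 members were lower, against 7.12% of all genes, and 0 were higher, against 4.54%. Of the 7832 genes at least as bright as the dimmest member, 355 were lower and 363 higher. These counts depend on the variance model. When it followed intensity, 3 members were lower and 1 higher, against 7.35% and 5.66% of all genes. The median standard error of the members was then 0.0621, against 0.0865 in the main fit. The looser thresholds of the study ask for a log2 difference over 0.75 in either direction, an adjusted p under 0.25 and an unadjusted one under 0.05. They were met by 0 members and by 27 genes in all (0.148%).

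For the brightest probe sets, the intervals bounded the size of the differences. All differences are in log2 units, shTNC minus shControl, and carry the standard error (SE) and 95% interval from limma. They ran from -0.19 to 0.14 over the members, and their intervals included 0 and reached no further than 0.39 from it in either direction. This bound does not hold for the other probe sets of the same genes, some of which had intervals that lay beyond it and left out 0 (Psma6, -0.86 to -0.20, Psmb1, 0.12 to 0.76, and Psmc4, 0.18 to 0.56). The upper and lower bounds lay a median of 0.199 from the estimate. The median absolute difference was 0.0631, against 0.104 over all genes and 0.0845 over the 7832 genes at least as bright as the dimmest member. Replicates lay close together, since the median standard deviation (SD) within a group was 0.0673 for the members, 0.125 for all genes and 0.0986 for the equally bright ones.

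By sign alone, 21 members were on the lower side and 14 on the higher side. The median difference was -0.0236, close to that of all genes (-0.0296) and of the equally bright genes (-0.00989). Groups did not overlap, with every shTNC array below every shControl array, for 5 members (14.3%, against 12.4% of all genes): Psmb2, Psmc6, Psmd7, Psmd12 and Psmd14. The reverse held for 3 members (8.57%, against 7.36% of all genes): Psma5, Psma7 and Psmd11. Both shares were near the background.

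**Figure D1:**
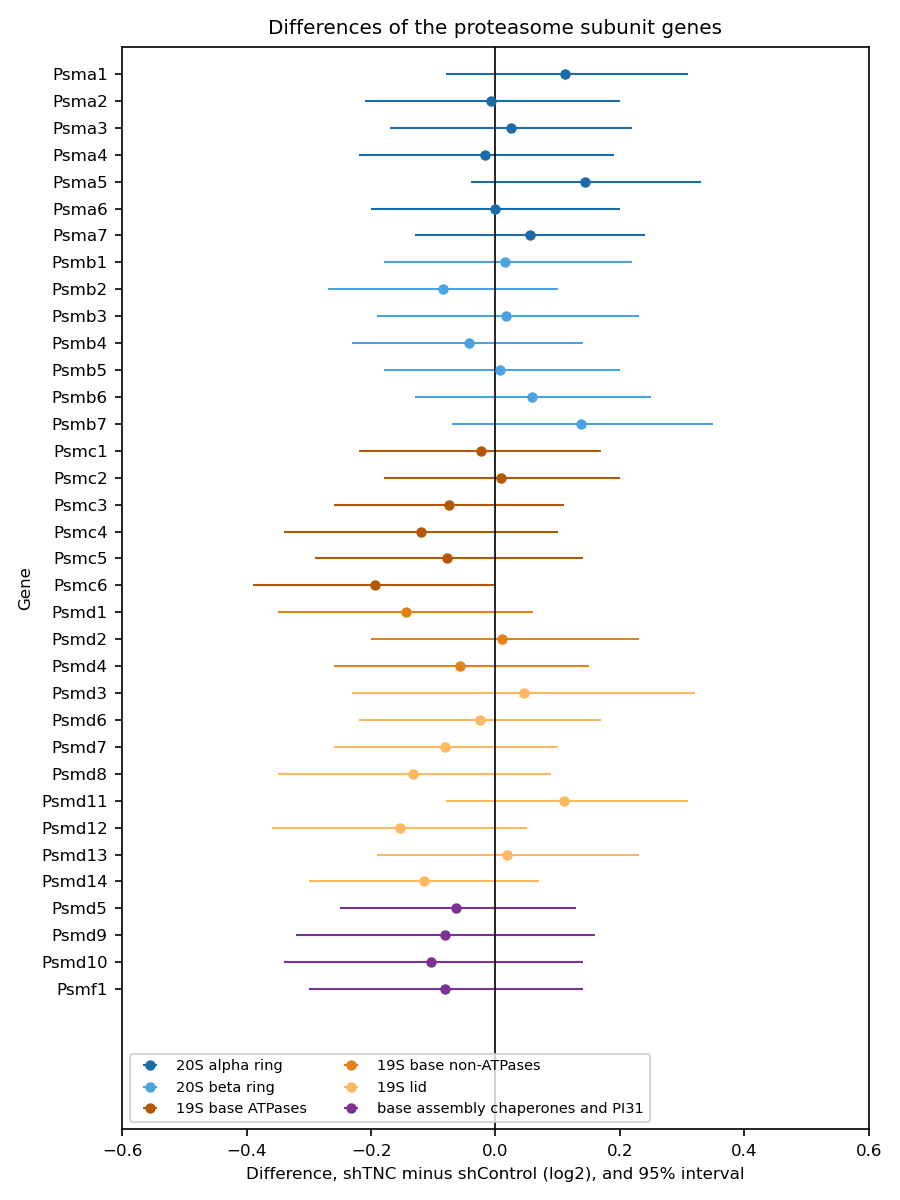
Difference of each of the 35 genes (shTNC minus shControl, log2, n = 3 arrays per group), as points with limma's 95% intervals, coloured by the place of the subunit. The points lie between -0.19 (Psmc6) and 0.14 (Psma5, Psmb7), and every interval reaches 0 or crosses it.

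The 7 alpha ring genes encode the outer rings that gate the core. Their median difference was 0.0249, with 3 on the lower and 4 on the higher side. Psma5 had the largest difference among them. Its log2 levels were 11.94, 11.91 and 11.98 in shControl and 12.04, 12.11 and 12.10 in shTNC. All 3 shTNC arrays lay above all 3 shControl arrays, by a gap close to the spread within a group. The difference was 0.14 ± 0.08 (SE, n = 3 per group; limma adjusted p = 0.484), with an interval of -0.04 to 0.33.

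Psma1 measured 12.46, 12.31 and 12.39 in shControl and 12.52, 12.52 and 12.44 in shTNC. The groups overlapped, since shControl 1 lay above shTNC 3, and the difference was 0.11 ± 0.08 (limma adjusted p = 0.607). Psma7 did not overlap between groups, although the distance was small: 12.73, 12.74 and 12.73 in shControl against 12.85, 12.77 and 12.75 in shTNC. The other alpha genes (Psma2, Psma3, Psma4 and Psma6) had differences between -0.02 and 0.02, with overlapping groups.

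The 7 beta ring genes form the inner rings, where the proteolytic sites lie. Their median difference was 0.0159, with 2 on the lower and 5 on the higher side. Psmb5 encodes the chymotrypsin-like subunit, the main target of the drug bortezomib. It measured 12.47, 12.55 and 12.43 in shControl and 12.55, 12.45 and 12.47 in shTNC. These values interleaved, and the difference was 0.01 ± 0.08 (limma adjusted p = 0.978) with an interval of -0.18 to 0.20.

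Psmb6, the caspase-like subunit, measured 12.60, 12.69 and 12.58 in shControl and 12.63, 12.69 and 12.72 in shTNC. The groups overlapped, and the interval of the difference was -0.13 to 0.25. Psmb7, the trypsin-like subunit, measured 11.46, 11.51 and 11.69 in shControl and 11.69, 11.70 and 11.69 in shTNC. Its shTNC arrays agreed within 0.01 while shControl 1 and 2 were lower, and shControl 3 was level with shTNC. The difference was 0.14 ± 0.09 (limma adjusted p = 0.554), with an interval of -0.07 to 0.35.

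Psmb2 is a structural beta subunit without a proteolytic site of its own. It measured 13.37, 13.36 and 13.34 in shControl and 13.24, 13.30 and 13.28 in shTNC. Every shTNC array lay below every shControl array, and the difference was -0.08 ± 0.08 (limma adjusted p = 0.683). The remaining structural genes, Psmb1, Psmb3 and Psmb4, had differences of 0.02, 0.02 and -0.04 with overlapping groups.

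The 6 ATPase genes encode the motor ring at the base of the regulatory particle. Their median difference was -0.0760, and 5 of the 6 were on the lower side. Psmc6 had the smallest p of all 35 members. It measured 12.38, 12.51 and 12.44 in shControl and 12.20, 12.24 and 12.32 in shTNC. Every shTNC array lay below every shControl array. The difference was -0.19 ± 0.09 (SE, n = 3 per group; limma adjusted p = 0.393), and its interval was -0.39 to 0.00.

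Psmc4 measured 12.38, 12.64 and 12.50 in shControl and 12.40, 12.43 and 12.33 in shTNC. The groups overlapped through shControl 1, and the difference was -0.12 ± 0.10 (limma adjusted p = 0.625). Psmc1, Psmc2, Psmc3 and Psmc5 had differences between -0.08 and 0.01, each with overlapping groups.

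The 3 other base genes encode scaffold and docking subunits (Psmd1 and Psmd2) and a ubiquitin receptor (Psmd4). Psmd1 measured 13.11, 13.04 and 13.15 in shControl and 13.04, 12.86 and 12.96 in shTNC. The highest shTNC array was level with the lowest shControl array at this rounding, and the difference was -0.14 ± 0.09 (limma adjusted p = 0.521). Psmd2 and Psmd4 had differences of 0.01 and -0.06.

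The 8 lid genes form the part that removes ubiquitin chains before a substrate enters. Their median difference was -0.0537, with 5 on the lower and 3 on the higher side. Psmd14 encodes the deubiquitinase of the lid, and measured 12.54, 12.51 and 12.45 in shControl and 12.40, 12.37 and 12.40 in shTNC. Its partner Psmd7 measured 12.14, 12.14 and 12.09 in shControl and 12.04, 12.03 and 12.05 in shTNC. For both genes of this pair every shTNC array was below every shControl array. The differences were -0.11 ± 0.08 for Psmd14 (limma adjusted p = 0.573) and -0.08 ± 0.08 for Psmd7 (limma adjusted p = 0.692).

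Among the scaffold subunits of the lid, Psmd12 measured 12.51, 12.57 and 12.49 in shControl and 12.48, 12.30 and 12.32 in shTNC. Here shTNC 1 lay just under the lowest shControl array while the other shTNC arrays were further away, and the difference was -0.15 ± 0.09 (limma adjusted p = 0.492). Psmd8 measured 12.18, 12.18 and 11.98 in shControl and 12.07, 11.93 and 11.94 in shTNC, with overlapping groups and a difference of -0.13 ± 0.10 (limma adjusted p = 0.59). Psmd11, which clamps the lid to the core, lay on the other side. It measured 12.74, 12.61 and 12.58 in shControl and 12.76, 12.74 and 12.77 in shTNC, a difference of 0.11 ± 0.08 (limma adjusted p = 0.611) with groups that did not overlap. Psmd3, Psmd6 and Psmd13 had differences of 0.05, -0.03 and 0.02, and Psmd3 had the widest interval among the lid genes (-0.23 to 0.32).

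Psmd5, Psmd9 and Psmd10 encode chaperones that help to assemble the base, and Psmf1 encodes PI31, a proteasome-binding regulator. All 4 were on the lower side, between -0.10 and -0.06, with overlapping groups and a median of -0.0809. Psmf1 measured 10.82, 10.99 and 10.79 in shControl and 10.89, 10.74 and 10.73 in shTNC, with an interval of -0.30 to 0.14.

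The core and the regulatory particle lay on opposite sides of 0, at medians of 0.0164 (20S, 9 of 14 on the higher side) and -0.0745 (19S, 12 of 17 on the lower side). With the second brightest probe sets, which 20 of the 35 members have, the 19S median was instead 0.0560 and the 20S median 0.0836, while the brightest probe sets of the same 20 genes gave -0.0246 and 0.0209. With the mean of all probe sets of each of the 35 genes, the signs were opposite again, at -0.0597 and 0.00961. This is a description of the members, and the difference between the particles was not tested. The SD between replicates was 0.0189 for the 20S median, more than the median difference itself, and 0.04 for the 19S median. Per array, the mean deviation of the 20S genes from their own means was -0.00916, -0.0129 and -0.0231 in shControl and 0.0162, -0.00202 and 0.0309 in shTNC. For the 19S genes it was 0.0160, 0.0732 and -0.000516 in shControl and 0.0120, -0.0647 and -0.0359 in shTNC. The 19S means overlapped between groups, since shTNC 1 lay above shControl 3. The 20S means did not overlap, but lay close, with shControl 1 at -0.00916 and shTNC 2 at -0.00202. The median deviation of all genes did not overlap either, in the other direction. It was -0.0083 or above on the shControl arrays and -0.00949 or below on the shTNC arrays.

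**Figure D2:**
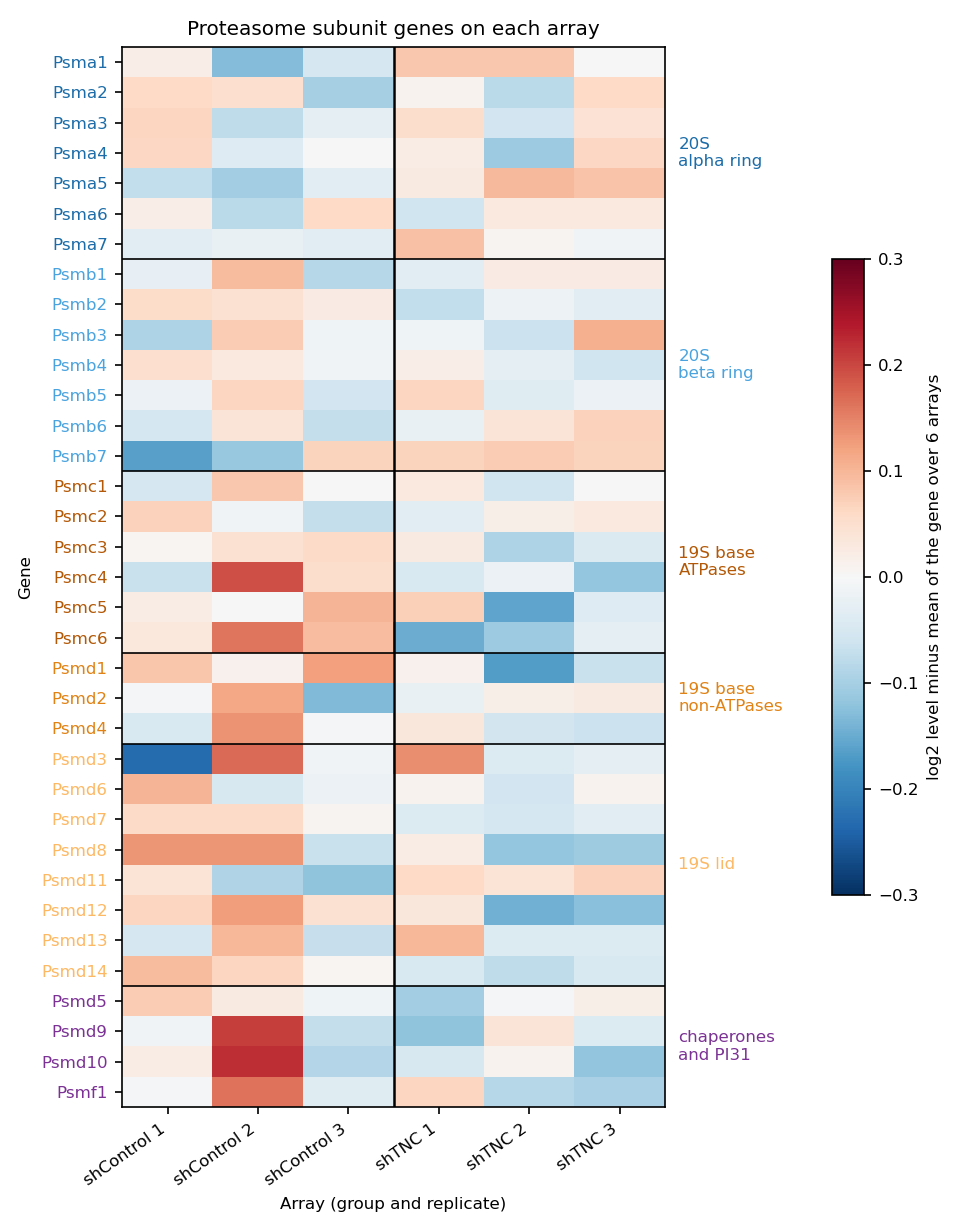
Log2 level of each gene on each of the 6 arrays minus the mean of the gene over the arrays, with genes in rows by the place of the subunit and arrays in columns by group and replicate. The shControl 2 column holds the highest value of 13 of the 35 genes, with its deepest red among the regulatory particle and chaperone genes.

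The highest value of a member fell on shControl 1 for 11 genes, on shControl 2 for 13 and on shControl 3 for 4, and on the shTNC arrays for 2, 2 and 3. The same counts over all genes were not computed. Some other measures were also highest on shControl 2, but not all. The mean deviations of the heat-shock chaperone genes (-0.344) and of the 20S alpha ring genes (-0.0577) were lowest on shControl 2. The median deviation of all genes was 0.0433 on shControl 2, against -0.0190 to 0.00644 on the other arrays. The mean deviation of 37 cell cycle genes was 0.442 on shControl 2, -0.00507 and 0.238 on the other shControl arrays and -0.298 to -0.172 on the shTNC arrays. That list stood 36 of 37 on the lower side in shTNC, with a median difference of -0.465 and 23 genes lower at an unadjusted limma p under 0.05. The part of these in the levels of the 19S genes was not tested. In sorted bulk samples, a lower level could come from fewer cells of a type or from less RNA per cell, and these cannot be told apart.

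Markers of other cell types varied more between replicates than the members did. The median within-group SD was 0.241 for 14 macrophage and monocyte markers, 0.324 for 10 fibroblast markers, 0.426 for 10 epithelial markers and 0.511 for 6 mesothelial markers. At an unadjusted limma p under 0.05, 3 macrophage markers (Mrc1, Chil3 and Cd14) and 1 epithelial marker (Nkx2-1) were lower, and 1 fibroblast, 2 pericyte and 1 mesothelial markers were higher. Of these lists, the mesothelial markers had the largest median difference, 0.743. Of the heat-shock chaperone genes, 2 of 10 were higher at that level, and the median of the list was -0.0500. The mean deviation of the mesothelial markers was -0.305 to -0.236 on the shControl arrays and -0.374 to 0.829 on the shTNC arrays.

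An Affymetrix array often carries several probe sets for a gene, which can read different parts of its transcripts. Why the probe sets of a member differed was not tested. The 35 members had 76 probe sets, and 20 members had more than 1. Of the 41 other probe sets, 30 lay above background and 11 near it. Among those 30, 19 probe sets of 13 genes pointed the other way from the brightest probe set of their gene. The share over all genes was not computed, so this count does not set the members apart. Some of the brightest differences lay close to 0 (Psma6, -0.0007, and Psmb3, 0.02), where the sign says little. In 3 of the 19 cases the unadjusted limma p was under 0.05, and 0 of the 41 passed an adjusted p of 0.05. Of the 30 above background, 3 were lower and 3 higher at an unadjusted limma p under 0.05. The share over all genes for such probe sets of any rank was not computed. For the second brightest probe sets alone, 0 of 20 members were lower at that level and 3 were higher. The shares over all 9012 genes with several probe sets were 6.36% and 7.57%.

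The smallest p of the 76 probe sets belonged to Psmc4. On the second probe set, 1416290_a_at, it measured 10.51, 10.45 and 10.35 in shControl and 10.82, 10.80 and 10.80 in shTNC. All shTNC arrays lay above all shControl arrays, against overlapping groups on the brightest probe set. The difference was 0.37 ± 0.08 (limma adjusted p = 0.215), with an interval of 0.18 to 0.56.

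Psmd11 and Psmf1 also had such a probe set. Psmd11 on 1456104_at measured 11.24, 11.37 and 11.39 in shControl and 11.13, 11.12 and 11.02 in shTNC, a difference of -0.25 ± 0.09 (limma adjusted p = 0.314). Psmf1 on 1424370_s_at measured 10.34, 10.19 and 10.40 in shControl and 10.50, 10.49 and 10.60 in shTNC, a difference of 0.22 ± 0.09 (limma adjusted p = 0.373). Neither pair of groups overlapped, and both differences were opposite in sign to those of the brightest probe set. The other probe sets of Psmd11 above background had differences from -0.25 to 0.04, against 0.11 on the brightest. For Psmc6, which had the smallest p of the members, the other probe sets above background gave 0.08 and 0.30, again opposite to the brightest.

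For 3 genes another probe set above background had the same sign as the brightest and an unadjusted limma p under 0.05. Psmb1 on 1420053_at measured 11.09, 10.87 and 10.57 in shControl and 11.16, 11.33 and 11.35 in shTNC, a difference of 0.44 ± 0.14 (limma adjusted p = 0.284). Psmd4 on 1451725_a_at measured 8.96, 9.03 and 8.98 in shControl and 8.65, 8.68 and 8.76 in shTNC, a difference of -0.29 ± 0.08 (limma adjusted p = 0.258). Psma6 on 1435317_x_at, close to the background level, measured 8.19, 7.99 and 8.01 in shControl and 7.75, 7.63 and 7.22 in shTNC, a difference of -0.53 ± 0.14 (limma adjusted p = 0.254). In all 3 cases the groups did not overlap, while the brightest probe set of the same gene had a difference between -0.06 and 0.02.

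**Figure D3:**
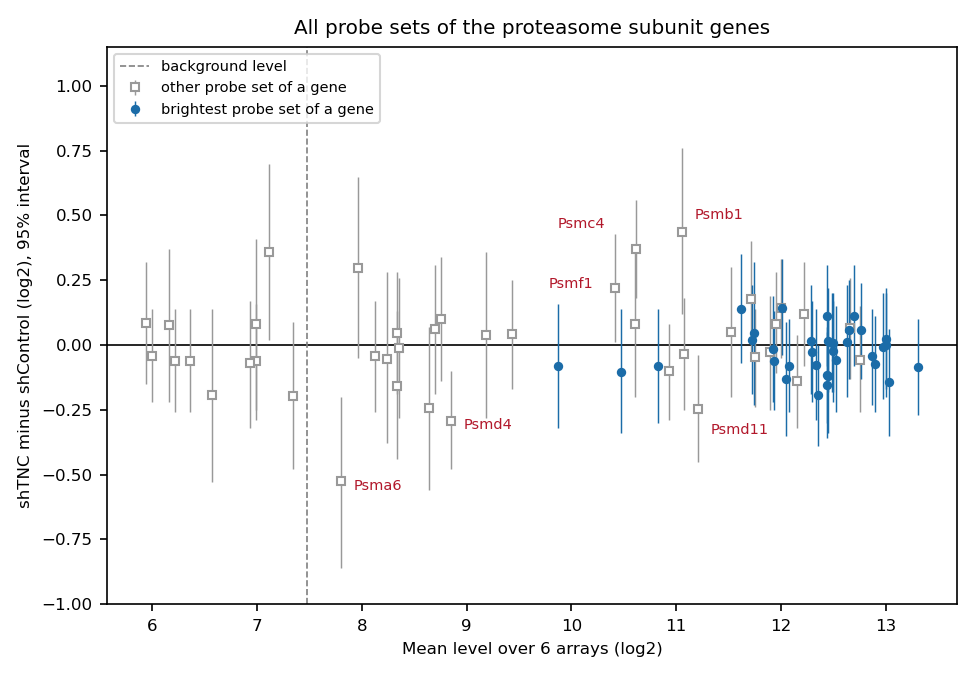
Mean log2 level over the 6 arrays (horizontal) and difference with limma's 95% interval (vertical) for the 76 probe sets of the members, with filled circles for the brightest probe set of each gene, open squares for the others and a dashed line at the background level of 7.48. Named squares are those above background with an unadjusted p under 0.05, and the filled circles stay between -0.19 and 0.14.

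The wider proteasome and ubiquitin system was read through 49 further genes, of which 40 had a probe set. Their median difference was 0.00845, with 18 on the lower and 22 on the higher side. At an unadjusted limma p under 0.05, 0 were lower, against 7.12% of all genes, and 1 was higher, against 4.54%. The adjusted threshold was passed by 0 of the 40. On the lower side, groups did not overlap for 4 of the 40 (Psme3, Psmg1, Vcp and Zfand2a), against 12.4% of all genes. On the higher side they did not overlap for 2 (Akirin2 and Mafk), against 7.36%. Neither share was above that of all genes.

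The immunoproteasome replaces the 3 proteolytic beta subunits with Psmb8, Psmb9 and Psmb10, which interferon gamma induces. Their levels were bright on every array, at 13.05 to 13.23, 12.75 to 12.96 and 13.21 to 13.37. The differences were 0.04 ± 0.09 for Psmb8, 0.08 ± 0.10 for Psmb9 and -0.01 ± 0.09 for Psmb10, with overlapping groups. Psmb11, the thymus-specific subunit, was near background.

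Of the activators that cap the core in place of the regulatory particle, Psme3, the nuclear one, measured 12.24, 12.18 and 12.15 in shControl and 12.05, 11.98 and 12.01 in shTNC. Every shTNC array lay below every shControl array, and the difference was -0.18 ± 0.08 (limma adjusted p = 0.404). Psme4, linked to histone degradation, had a difference of -0.09 ± 0.08 and overlapping groups.

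Among the chaperones that build the core, Psmg1 measured 11.11, 11.14 and 11.03 in shControl and 10.95, 10.97 and 10.91 in shTNC. The groups did not overlap, and the difference was -0.15 ± 0.08 (limma adjusted p = 0.477). Psmg3 had a difference of 0.12 ± 0.10 with overlapping groups, and the 5 chaperone genes had a median of -0.0184.

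Akirin2, which carries proteasomes into the nucleus, was the 1 gene of the wider system with an unadjusted p under 0.05. It measured 12.28, 12.12 and 12.11 in shControl and 12.43, 12.39 and 12.48 in shTNC. Every shTNC array lay above every shControl array, and the difference was 0.27 ± 0.09 (limma adjusted p = 0.297), with an interval of 0.06 to 0.47. Sem1, the smallest lid subunit, had a difference of 0.12 ± 0.09 with overlapping groups.

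The ubiquitin-activating enzyme gene Uba6 and the ubiquitin-like modifier gene Nedd8 had differences of -0.19 ± 0.10 and 0.20 ± 0.11, both with overlapping groups. Vcp, the p97 ATPase that extracts ubiquitinated proteins, measured 13.53, 13.59 and 13.55 in shControl and 13.49, 13.17 and 13.40 in shTNC. Its groups did not overlap, although shTNC 1 was close to shControl, and the difference was -0.20 ± 0.10 (limma adjusted p = 0.448). Zfand2a, an arsenite-inducible proteasome-binding protein gene, measured 11.97, 11.83 and 11.90 in shControl and 11.76, 11.67 and 11.74 in shTNC, a difference of -0.18 ± 0.08 (limma adjusted p = 0.418). Again the groups did not overlap.

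Nfe2l1 encodes NRF1, the factor that raises proteasome subunit genes together when proteasome activity is short. It measured 12.45, 12.27 and 12.39 in shControl and 12.36, 12.41 and 12.49 in shTNC. The groups overlapped, and the difference was 0.05 ± 0.09 (limma adjusted p = 0.844). Its small Maf partners Mafk and Mafg had differences of 0.11 ± 0.08 and -0.11 ± 0.09, with groups that did not overlap for Mafk and did for Mafg.

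NRF1 with a small Maf binds the antioxidant response element, so the promoters of the members were searched for its core, TGACNNNGC, on both strands. The windows, taken from RefSeq (GRCm38.p6), ran from 250 bases before the start of a gene to 50 bases after it, 300 in all. Of the 35 members, 29 had a window, and Psmb1, Psmb2, Psmb7, Psmc3, Psmd3 and Psmd7 had none in the table used. The core was present in 5 of the 29 (17.2%), against 14.0% of 27025 genes with a window. The stricter form TGACTCAGC, a subset of the core, was in 0 of the 29 and in 0.503% of all genes. The CCAAT box, searched in the same way, was in 11 of the 29 (37.9%) and in 41.1% of all genes. All 5 core matches are printed, so that the letters inside and around the core can be compared. They are shown with up to 10 flanking bases along the strand of the gene, with the match in capitals.
Psmb5: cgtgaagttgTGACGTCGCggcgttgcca
Psmb6: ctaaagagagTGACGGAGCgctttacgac
Psmc6: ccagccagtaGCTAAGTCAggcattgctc
Psmd12: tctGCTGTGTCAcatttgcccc
Psmd9: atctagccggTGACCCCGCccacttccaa
The Psmb5 site lies at chr14:54618024-54618052 on the minus strand, with its centre 43 bases before the start. The Psmb6 site lies at chr11:70525338-70525366 on the plus strand, 5 bases before the start, and the Psmd9 site at chr5:123228149-123228177 on the plus strand, 27 bases before it. The Psmc6 site at chr14:45329587-45329615 and the Psmd12 site at chr11:107479278-107479299 belong to plus-strand genes but carry the core on the opposite strand, 223 and 243 bases before the start. A match in the letters is not evidence of binding. The 5 genes with a match had differences of 0.01 (Psmb5), 0.06 (Psmb6), -0.19 (Psmc6), -0.15 (Psmd12) and -0.08 (Psmd9).

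**Figure D4:**
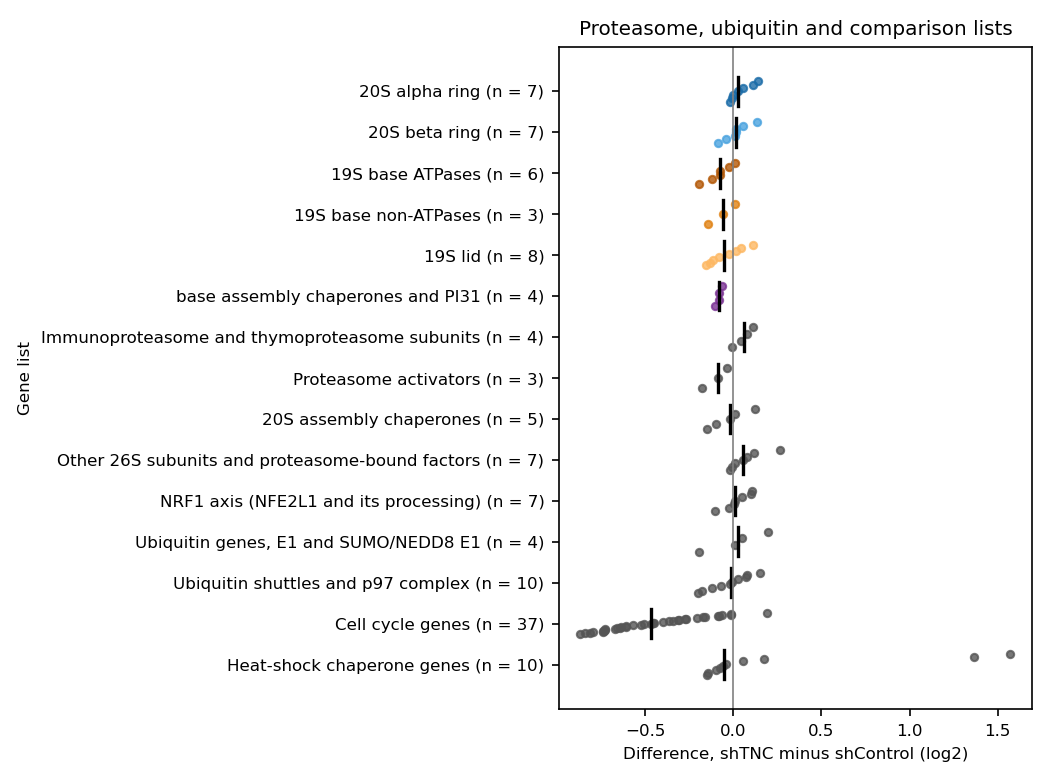
Difference of each gene (points; shTNC minus shControl, log2) in the 6 structural groups of proteasome genes, in 7 further proteasome and ubiquitin lists, and in cell cycle and heat-shock genes for comparison, with a black bar at the median of each list. Points of the proteasome and ubiquitin lists lie between -0.20 and 0.27, while the cell cycle genes reach -0.87 and the heat-shock genes 1.57.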

How the data were processed

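Total RNA of sorted lung ECs (3 shControl and 3 shTNC samples, 1 array each) was measured on Affymetrix Mouse Genome arrays from 2 ng of input per the labels. Each deposited value is the log2 level of a probe set after normalization between arrays by the authors, whose methods name RMA in Chipster. Which probe summary the deposited table holds was not settled here. The values ran from 5.368 to 14.53 on the arrays. The number of arrays, 3 per group, limits the precision. The samples are labelled biological replicates.

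The 2 groups were compared by the two-sided moderated test of limma (version 3.58.1, R version 4.3.3), with lmFit followed by eBayes. The p-values of all 45101 probe sets, 64 controls among them, were adjusted by Benjamini-Hochberg, and an adjusted p under 0.05 passed. No filter was applied. Of the probe sets, 34958 carried 1 gene symbol in the platform's annotation, and the brightest per symbol gave 18194 genes. Probe sets with a mean under 7.48 were called near background.

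The 35 members and the other gene lists were chosen with earlier results of these data known. Of 49 proteasome and ubiquitin entries, 40 were matched to a probe set with 1 gene symbol, and the others were not analysed here. Values on every array are given for the 12 members with the smallest p, for Psmb5, Psmb6 and Psmb7, and for members whose other probe sets above background pointed the other way at an unadjusted p under 0.05. Further, the rule names the 2 genes of each other proteasome and ubiquitin list with the smallest p, Nfe2l1, the immunoproteasome genes and 6 markers of the sort. Values of Psma7, of the other probe sets of Psmb1, Psmd4, Psma6 and Psmc6, and of further markers, were added after they were seen. No test was run over a list. Alternatives were other normalizations, variance models, probe sets, leave-one-out fits and a replicate block. The steps were tested on simulated data.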

Additional observations from a re-analysis of the deposited data

How the results depend on the processing

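In all alternatives tried, 0 members passed an adjusted p of 0.05, and the smallest adjusted limma p was 0.215 (Psmc4, second probe set). The choice of probe set turned several signs. With the second brightest probe set, which 20 members have, the median difference was 0.0638 over the members, 0.0836 over the 20S genes and 0.0560 over the 19S genes, 3 members were higher at an unadjusted p under 0.05 (Psmb1, Psmc4 and Psmf1; 7.57% of the 9012 genes with several probe sets), and groups did not overlap for 2 members on the lower side and 4 on the higher side (10.5% of those genes on each side). The brightest probe sets of the same 20 members, an alternative chosen after seeing the data, gave -0.0246 over the 19S genes and 2 members not overlapping on the lower side. The second probe set was opposite in sign for 13 of the 20 members, and the share over all genes was not computed. Of the members described array by array, these were Psma1 (-0.0421), Psmc4 (0.37), Psmc6 (0.0813), Psmd7 (0.0609), Psmd11 (-0.14) and Psmf1 (0.221). With the mean of all probe sets of a gene, signs turned for Psmc4 (0.125), Psmc6 (0.0614), Psmd11 (-0.0707) and Psmf1 (0.0417). Their cause was not tested.

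An intensity trend with robust eBayes gave 3 members lower (Psmc6, Psmd1 and Psmd12) and 1 higher (Psma5) at an unadjusted p under 0.05, against 7.35% and 5.66% of all genes. Without probe sets near background, and with 1 probe set per gene entering the fit, 1 member was lower (Psmc6), against 7.42% and 7.99% of all genes. Leaving out each array in turn, the median ranged from -0.0478 to -0.00332 over the members, from 0.00811 to 0.0497 over the 20S genes (0.0497 without shControl 2 and 0.0431 without shTNC 2) and from -0.0886 to -0.0445 over the 19S genes. Members lower at an unadjusted p under 0.05 numbered 0 to 1 (Psmc6, without shControl 1). On the lower side, groups did not overlap for 5 to 12 of the 35 members. The count was 9 without shControl 3 (against 22.5% of all genes) and 12 without shTNC 1 (against 18.8%, a smaller share than among the members). On the higher side, groups did not overlap for 3 to 5 of the 35, 5 without shControl 2 (against 12.6%) or without shTNC 3 (against 10.8%). With fewer arrays, groups that do not overlap are more frequent among all genes. Psmb5 lay between -0.0204 and 0.0398 in these fits. Of 217 pairs of a named member and an alternative, 204 kept their sign and their side of the threshold and 13 changed sign. Many of these pairs could not change sign. The background filter, the intensity trend with robust eBayes, 1 probe set per gene in the fit and the replicate block leave each difference as it was. The count of 204 is therefore not a measure of robustness.

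The replicate numbers in the labels were not treated as pairs. Deviations of same-numbered arrays correlated at -0.113, 0.0384 and 0.144 over 30287 probe sets above background, and those of differently numbered arrays at -0.143 to 0.105. With 3 arrays per group, these values cannot exclude pairing. A replicate block leaves the differences unchanged in this balanced design, with a median of -0.0236. In that fit, 0 members were past an unadjusted limma p of 0.05, and the smallest adjusted p of a member was 0.451. With 3 arrays per group, the differences of the members on their brightest probe sets could not be told from 0 in the main fit. A p above the threshold does not show that levels were equal.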
